A study of Mus musculus with 10 samples.

Results

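The S100A genes encode small calcium-binding proteins, and 10 of them were examined here: S100a1, S100a3, S100a4, S100a6, S100a8, S100a9, S100a11, S100a13, S100a14 and S100a16. A gene was followed through the array probe sets whose platform annotation names that gene alone, and where a gene had several of these, the one with the highest mean signal was used. This gave 9 of the 10 genes, out of 18194 genes with such a probe set, and all 9 passed the filter on low signals that left 14087 genes for testing. The only probe set naming S100a11 also names further genes, so S100a11 was not analysed here. The arrays were 5 of wild-type (WT) cells, numbered WT 1 to WT 5, and 5 of cells labelled Fezf2 KO, numbered KO 6 to KO 10. All were medullary thymic epithelial cells (mTECs) of C57BL/6 mice aged 3 weeks, sorted as CD45-, EpCAM+ and CD80hi. Fezf2 is a transcription factor of these cells, and the comparison asks what changes in them when it is missing. The sources used here do not say how the Fezf2 allele was made, in which cells it was deleted, or whether each array came from its own mouse. A p-value below therefore reflects the spread among arrays alone, and that spread may be technical.

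S100 proteins carry a pair of EF-hand calcium-binding loops and mostly work as dimers. Calcium opens a hydrophobic face with which they bind other proteins, such as annexins and myosin, and some members act outside the cell on receptors that include RAGE and TLR4. S100A8 and S100A9 form calprotectin, a metal-binding antimicrobial complex that is abundant in neutrophils and is also made by squamous and inflamed epithelia. The S100A genes lie together on mouse chromosome 3, beside the epidermal differentiation complex, whose genes build the cornified outer layer of the skin. Medullary thymic epithelial cells include cells that go on to a cornified, skin-like state.

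Fezf2 itself was between 5054 and 5895 on the WT arrays and between 12.1 and 18.3 on the KO arrays, and no array went against its label. Epcam (6994 to 7984.9 over all arrays) and Krt8 (12177 to 13821) had high signals in both groups, but the mTEC markers as a list differed between the groups. Of 12, Fezf2, Aire (log2 change -0.45) and Krt14 (-0.42) were lower, and Krt5 (0.71), Cldn3 (0.65), Cldn4 (0.53) and Tnfrsf11a (0.76) were higher. For comparison, 16.2% of all genes tested were called lower and 13% higher (limma, adjusted p under 0.05). The calls of Aire and Krt14 were lost without WT 3, WT 4 or WT 5, and that of Krt14 also without KO 6, KO 7, KO 8 or KO 9. WT 1 and KO 6 stood apart, with poly-A spike-in geometric means of 133.1 and 184.5 (38.6 to 106.9 on the other arrays) and 18S rRNA signals of 2731 and 3082 (594.7 to 1362 elsewhere), so counts of members are also given without them. For 3 arrays, namely WT 2, KO 6 and KO 8, Xist lay at 21.1 to 30.0, while on the others it lay at 5304 to 6100.

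S100a8 and S100a4 were higher in Fezf2 KO cells and S100a13 was lower, all by less than 1.5-fold, while the other 6 measured members did not pass the threshold. In numbers, 2 members were higher, 1 was lower and 6 were not past the threshold (limma, adjusted p under 0.05), with a median log2 change of 0.17 against -0.03 for all genes tested. Of all genes tested, 29.2% were called, 13% as higher and 16.2% as lower, so that 3 of 9 members is near the share of all genes. Without WT 1 and KO 6 the count was 7 of 9, with 5 higher and 2 lower, where 31.5% of all genes were called. It was 5 of 9 without WT 1 alone (29.8% of all genes) or without KO 10 alone (27.6% of all genes), S100a6 and S100a9 being the members gained. Counts for the other gene lists and the marker lists stand beside the same shares of all genes. Fewer cells of a type and less RNA per cell cannot be told apart in these samples.

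**Figure D1:**
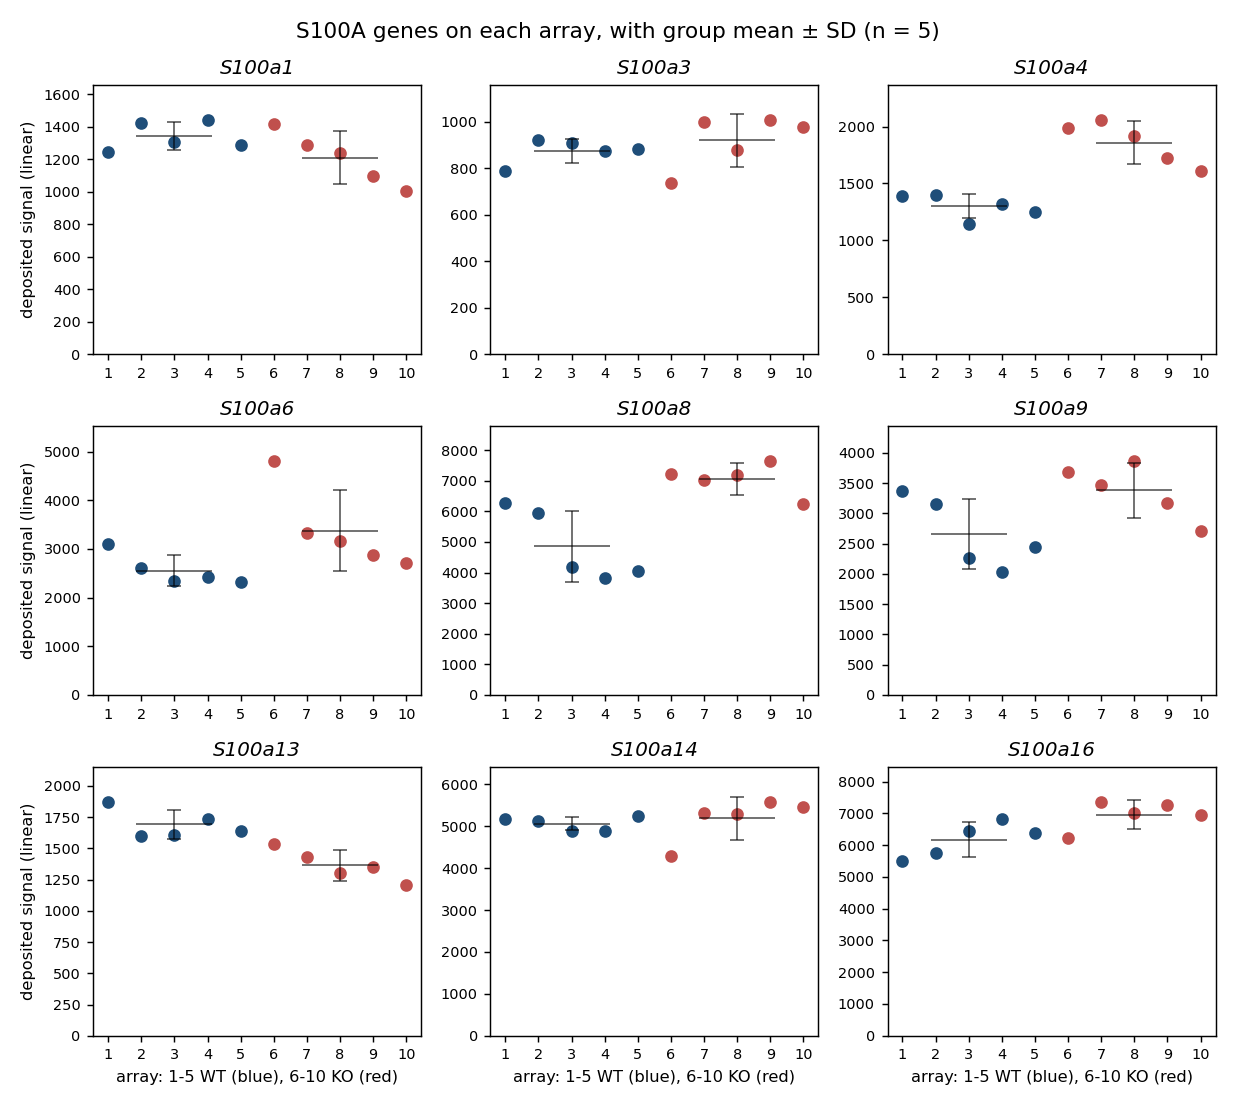
Deposited linear signal of each S100A gene (vertical axis, from 0) on each array (horizontal axis, WT 1 to 5 in blue and KO 6 to 10 in red), with the group mean and SD over 5 arrays in black. S100a4 lies higher on all 5 KO arrays than on any WT array, S100a13 lies lower on all 5, and S100a6 is highest on KO 6 at 4809.

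Calprotectin is encoded by S100a8 and S100a9, which are neighbours on the chromosome. The stretches before the transcription starts of S100a8, S100a9 and S100a4 are shown because S100a8 and S100a4 are the members that rose and S100a9 is the partner of S100a8. They are the 250 bases before the RefSeq start on GRCm38.p6, written 5′ to 3′, with capitals at matches on either strand to TATAAA (the TATA box), TTNCNNAA (a C/EBP-type site) or TGANTCA (an AP-1 site).
S100a8, chr3:90668821-90669070, plus strand: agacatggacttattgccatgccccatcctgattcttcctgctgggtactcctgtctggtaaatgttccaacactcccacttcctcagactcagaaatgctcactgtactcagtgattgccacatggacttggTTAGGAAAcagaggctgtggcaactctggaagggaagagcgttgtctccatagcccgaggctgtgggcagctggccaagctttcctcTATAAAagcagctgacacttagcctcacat
S100a9, chr3:90695722-90695971, minus strand: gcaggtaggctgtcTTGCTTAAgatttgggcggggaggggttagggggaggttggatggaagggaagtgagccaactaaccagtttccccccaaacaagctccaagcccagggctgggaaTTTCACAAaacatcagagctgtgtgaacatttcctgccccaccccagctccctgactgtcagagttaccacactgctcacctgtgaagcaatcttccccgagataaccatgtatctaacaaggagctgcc
S100a4, chr3:90603520-90603769, plus strand: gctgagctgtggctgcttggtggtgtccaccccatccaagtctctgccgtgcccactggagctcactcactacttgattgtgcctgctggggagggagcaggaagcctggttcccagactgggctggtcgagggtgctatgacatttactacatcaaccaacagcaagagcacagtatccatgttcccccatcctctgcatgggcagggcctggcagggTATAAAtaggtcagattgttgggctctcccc
The S100a8 stretch holds TATAAA beginning 30 bases before the start and a TTNCNNAA match at 117 bases, and the S100a4 stretch holds TATAAA at 31 bases. The S100a9 stretch holds TTNCNNAA matches at 236 and 130 bases and no TATAAA. Over 32851 RefSeq stretches of the same length, 12.4% hold TATAAA, 36.8% hold TTNCNNAA and 6.75% hold TGANTCA, overlapping matches being counted for each motif. None of the 3 stretches holds TGANTCA. Among the 13 stretches found for 9 of the 10 genes (S100a14 is not in the table), 3 hold TATAAA, 4 hold TTNCNNAA and 2 hold TGANTCA, which lie before S100a11 and one start of S100a16.

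S100a8 was higher in KO cells. Its signals were 6288, 5940, 4198, 3826 and 4046 on WT 1 to WT 5, and 7225, 7021, 7183, 7652 and 6228 on KO 6 to KO 10. The WT arrays thus fell into a high pair, WT 1 and WT 2, and a lower trio, and KO 10 was the only KO array below a WT array. Mean signals were 4859 ± 1159 (WT) and 7062 ± 521 (KO; SD, n = 5 each), a rise of 1.48-fold on the scale of log2(signal + 16), which understates changes of genes with low signal. The log2 change was 0.57 (SE 0.13, limma, adjusted p = 0.00674). By exact permutation, two-sided, p was 0.0159, where 0.00794 is the smallest value that 5 against 5 arrays allow. The call held in each of the 10 fits that left out 1 array, with changes of 0.49 to 0.67. This probe set carries the suffix that marks sequence shared between transcripts.

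S100a9, the partner in calprotectin, did not pass the threshold. Its signals were 3367, 3161, 2261, 2032 and 2445 on WT 1 to WT 5, and 3687, 3467, 3867, 3162 and 2713 on KO 6 to KO 10. WT 1 and WT 2 again lay above the other WT arrays, inside the range of the KO arrays. The means were 2653 ± 581 and 3379 ± 456 (SD, n = 5 each), with a log2 change of 0.36 (95% interval 0.06 to 0.67, limma, adjusted p = 0.0712; exact two-sided permutation p = 0.0635). The gene passed without WT 1 (adjusted p = 0.022), without WT 2 (adjusted p = 0.0453), without KO 10 (adjusted p = 0.0364) and without both WT 1 and KO 6 (log2 change 0.42, adjusted p = 0.0397).

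**Figure D2:**
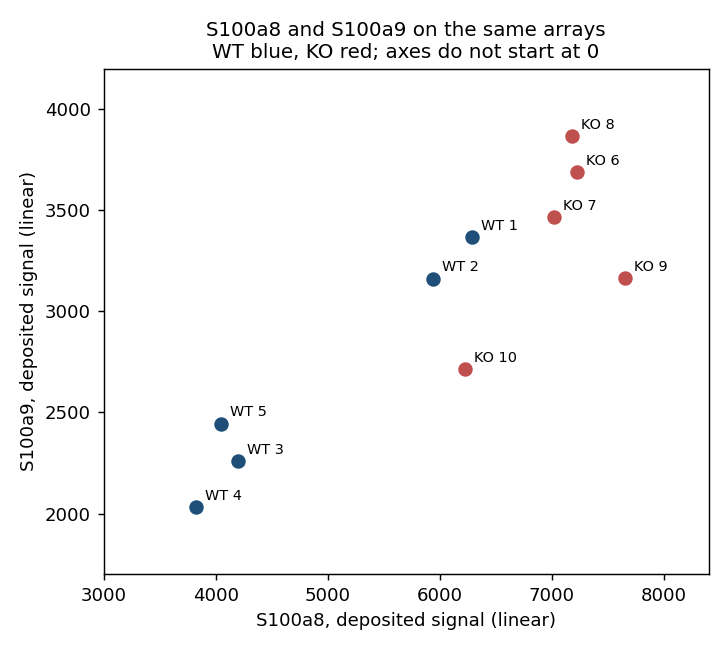
Deposited linear signals of S100a8 (horizontal) and S100a9 (vertical) on the same array, 1 point an array, WT blue and KO red, with axes that do not start at 0. WT 1 and WT 2 lie apart from WT 3, WT 4 and WT 5 in both genes, and KO 9 has the highest S100a8 signal, 7652, with an S100a9 signal of 3162.

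With the mean of each genotype removed, S100a8 and S100a9 varied together over the 10 arrays, with Pearson's r of 0.88 (exact permutation within genotypes, p = 0.00903) and Spearman's rho of 0.87 (exact permutation p = 0.014). The adjusted p was 0.132 for r over the 36 pairs of members, so the relation did not pass the correction. Without WT 1 and WT 4, the arrays farthest from the median of S100a8, r was 0.77. Other pairs of members had an r of like size and the same adjusted p. It was 0.84 for S100a6 with S100a13 and -0.87 for S100a3 with S100a6. Without WT 1 and KO 6 these were 0.59 and -0.09, and that of S100a8 with S100a9 was 0.83. Without these arrays r was higher still for S100a1 with S100a6 (0.95), S100a4 with S100a6 (0.94) and S100a1 with S100a4 (0.92). On the same array the log2 ratio of S100a8 to S100a9 was 0.86 ± 0.08 for WT and 1.07 ± 0.16 for KO arrays (SD, n = 5 each; exact two-sided permutation p = 0.0317, adjusted p = 0.0952 over 3 such ratios). Levels of different probe sets cannot be compared, so only the shift of this ratio, 0.20, carries information, and it did not pass.

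S100A8 and S100A9 are also strong products of neutrophils and of cornified epithelium, and the markers of these cells are given for that reason. Of 14 neutrophil markers 10 had a probe set naming them alone and 6 passed the filter on low signals. Of these 6, Camp and Cd177 were lower and Ltf was higher, where 16.2% of all genes were called lower and 13% higher. The list was divided in level. Cxcr2 was between 10.5 and 12.9 and Elane between 13.2 and 17.3 on all arrays, below the 40th percentile of each array (21.5 to 22.1), and Mmp8 and Csf3r missed the filter. Ngp (319.9 to 535.7 over all arrays), Mpo (376.6 to 551.3) and Mmp9 (144.3 to 454.2) lay well above that percentile in both groups and did not pass the test. The summed signal of the neutrophil list was 2551 to 3516 in WT and 3366 to 5091 in KO cells, of which Ltf, the iron-binding protein lactoferrin, made 658.5 to 1420 and 1830 to 4001. Of 12 cornified cell markers 7 were higher and 2 lower, against the same 13% and 16.2% of all genes. Scel (log2 change 2.62), Sbsn (1.53), Sprr1a (1.51), Krt80 (1.05) and Sprr3 (0.71) were among the higher ones, while the suprabasal keratins Krt10 (-2.47) and Krt1 (-1.37) were the lower ones. Their summed signal was 9366 to 14569 in WT and 15553 to 20087 in KO cells, with WT 1 the highest WT array. The part of these cells in the S100a8 and S100a9 values was not tested.

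S100a4, known as metastasin or fibroblast-specific protein, binds non-muscle myosin and is expressed in many motile and mesenchymal cells. Its signals were 1390, 1395, 1145, 1323 and 1252 on WT 1 to WT 5, and 1987, 2057, 1921, 1722 and 1606 on KO 6 to KO 10. All 5 KO arrays lay above all 5 WT arrays, which was so in that direction for 10.1% of the genes tested. The means were 1301 ± 105 and 1859 ± 189 (SD, n = 5 each), a 1.42-fold rise with a log2 change of 0.51 (SE 0.08, limma, adjusted p = 5.9e-04; exact two-sided permutation p = 0.00794, the smallest possible). Its change lay between 0.46 and 0.56 over the 24 other ways of processing. Of 8 fibroblast markers 2, Dcn and Lum, were higher, where 13% of all genes were called higher. The summed signal of the list was 2823 to 3438 in WT and 3182 to 3703 in KO cells. Lum had a log2 change of 0.86, and the call of Dcn (0.30) was lost without WT 2, WT 3 or WT 4. Leaving out KO 6 gave 3 higher markers (29% of all genes called). Leaving out WT 1 or KO 8 gave 2 higher and 1 lower, Pdgfrb (29.8% and 24.4% of all genes called). Endothelial markers were higher in KO cells in 4 of 5 cases, where 13% of all genes were called higher. The log2 changes were 0.62 for Pecam1, 0.79 for Cdh5, 0.75 for Kdr and 0.60 for Emcn. Without WT 1 and KO 6 the count was 5 of 5, where 31.5% of all genes were called. Emcn lay at 12.7 to 28.5 in WT and 25.2 to 40.3 in KO cells, and Pecam1 at 15.8 to 38.1 in WT cells. In WT cells both were thus near the 40th percentile of the arrays (21.5 to 22.1). The KO arrays alone sufficed for Emcn to pass the filter. The summed signal of the endothelial list was 217.7 to 447.6 in WT and 445.8 to 529.3 in KO cells. That of 10 thymocyte markers, 9 of which were on the array, was 1027 to 1328 and 639.0 to 1398. Of 2 B cell markers tested Cd79b was lower (-0.64) and Ms4a1 higher (0.36), where 29.2% of all genes were called. The part of such cells in the S100a4 values was not tested.

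S100a6, or calcyclin, is a close chromosomal neighbour of S100a4 that is found in proliferating and epithelial cells. Its signals were 3100, 2598, 2335, 2419 and 2324 on WT 1 to WT 5, and 4809, 3330, 3153, 2880 and 2701 on KO 6 to KO 10. Only WT 1 reached into the KO range, and the arrays with the highest spike-in and rRNA signals, WT 1 and KO 6, were the highest of their groups. The means were 2555 ± 324 and 3375 ± 837 (SD, n = 5 each), and the log2 change of 0.38 did not pass (95% interval 0.08 to 0.68, limma, adjusted p = 0.0594; exact two-sided permutation p = 0.0317). Without WT 1 and KO 6 it was 0.31 with a smaller error and passed (SE 0.07, adjusted p = 0.00589), and it also passed at 0.45 when WT 1 alone (adjusted p = 0.0309) or KO 10 alone (adjusted p = 0.0327) was left out. The ratio of S100a4 to S100a6 on the same array had a genotype difference of 0.13 (log2, exact two-sided permutation p = 0.294, adjusted p = 0.294), so unequal change was not shown with all arrays. The log2 ratio was -1.15 to -0.86 on WT and -1.27 to -0.69 on KO arrays. Its lowest KO value was that of KO 6, and the other KO arrays lay above the WT range. The ratio was not tested without WT 1 and KO 6.

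S100a13 was the member that fell. The protein takes part in the release of FGF1 and interleukin 1 alpha, which lack a signal peptide. Its signals were 1875, 1603, 1606, 1736 and 1640 on WT 1 to WT 5, and 1532, 1432, 1304, 1355 and 1206 on KO 6 to KO 10. All KO arrays lay below all WT arrays, as they did for 12% of the genes tested, and 22.1% of genes did not overlap in either direction. The means were 1692 ± 115 and 1366 ± 124 (SD, n = 5 each), a 1.24-fold fall with a log2 change of -0.31 (SE 0.07, limma, adjusted p = 0.00707; exact two-sided permutation p = 0.00794). The call held without each array in turn, with changes of -0.35 to -0.26. Of its cargo genes, Fgf1 rose from 81.2 ± 8.90 to 124.6 ± 18.8 (SD, n = 5 each) and Il1a had a log2 change of -0.15 (adjusted p = 0.241).

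S100a1, known for its action on calcium handling in muscle, is the next gene to S100a13 and is read from the opposite strand. Its signals were 1244, 1422, 1304, 1440 and 1288 on WT 1 to WT 5, and 1418, 1289, 1236, 1094 and 1002 on KO 6 to KO 10. The groups overlapped, with 3 KO arrays below the WT range and KO 6 near its top. The log2 change was -0.16 (95% interval -0.35 to 0.04, limma, adjusted p = 0.219), and a second probe set, at 307.4 ± 23.4 and 275.9 ± 33.7 (SD, n = 5 each), gave -0.15. Without WT 1 and KO 6 the change was -0.24 and passed (adjusted p = 0.0439). The log2 ratio of S100a1 to S100a13 shifted by 0.15 between genotypes (exact two-sided permutation p = 0.0794, adjusted p = 0.119), so that a difference between these neighbours was not shown.

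**Figure D3:**
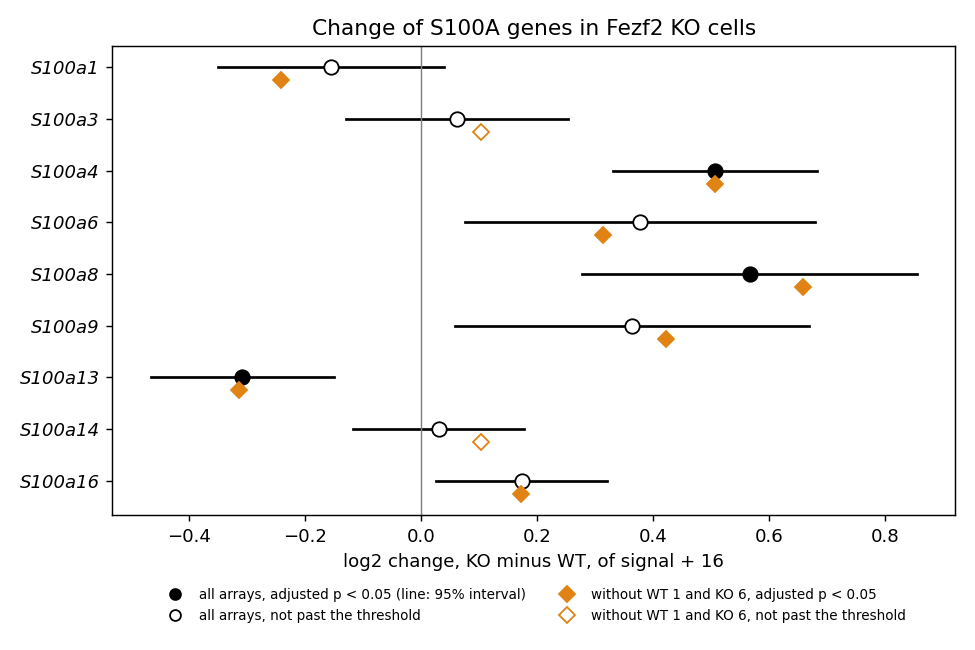
Log2 change of each S100A gene, KO minus WT, on the log2(signal + 16) scale. Circles are the fits with all 10 arrays, with 95% intervals, and diamonds the fits without WT 1 and KO 6; filled symbols have an adjusted p under 0.05, which holds for 3 circles and 7 diamonds.

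S100a14 and S100a16 are members of simple and stratified epithelia, and their signals were high on all arrays. S100a16 had signals of 5493, 5739, 6444, 6817 and 6392 on WT 1 to WT 5, and 6211, 7370, 7018, 7261 and 6940 on KO 6 to KO 10. All KO arrays but KO 6 lay above the WT range, and WT 1 and KO 6 were the lowest of their groups. The log2 change was 0.17 (95% interval 0.03 to 0.32) and missed the threshold (limma, adjusted p = 0.0742; exact two-sided permutation p = 0.0556). It passed without KO 6 (0.21, adjusted p = 0.0244) and without WT 4 (0.21, adjusted p = 0.0442). The other probe set of S100a16, with means of 5479 ± 538 and 6373 ± 308 (SD, n = 5 each), passed in a fit of all 23581 kept probe sets (log2 change 0.22, limma, adjusted p = 0.0319).

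S100a14 had signals of 5172, 5135, 4892, 4888 and 5243 on WT 1 to WT 5, and 4301, 5323, 5289, 5590 and 5465 on KO 6 to KO 10. KO 6 was the lowest of all arrays, while the other 4 KO arrays lay just above the WT range. The log2 change was 0.03 (95% interval -0.12 to 0.18, limma, adjusted p = 0.775), and 0.10 without KO 6. S100a3, a protein of the hair cuticle, had signals of 788.8, 922.6, 909.0, 875.3 and 881.1 on WT 1 to WT 5, and 734.1, 998.2, 880.1, 1007 and 977.8 on KO 6 to KO 10. As with S100a14 and S100a16, KO 6 was the lowest KO array, and WT 1 was the lowest WT array. The log2 change of S100a3 was 0.06 (95% interval -0.13 to 0.25, limma, adjusted p = 0.637).

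Among 11 other S100 genes 6 were tested, where 29.2% of all genes tested were called. S100a10 was higher, S100g and S100b were lower and the others did not pass. These genes are named after their values were seen. S100a10, which has lost calcium binding and pairs with annexin A2, had signals of 1614, 1483, 1230, 1333 and 1323 on WT 1 to WT 5, and 2777, 1948, 1951, 1839 and 1917 on KO 6 to KO 10. All KO arrays lay above all WT arrays, as they did for 10.1% of the genes tested, and KO 6 was again the highest. The log2 change was 0.56 (SE 0.11, limma, adjusted p = 0.00253), and its 3 probe sets gave 0.49 to 0.56. S100g, the vitamin D-dependent calbindin of the intestine, had WT signals from 978.0 to 1595 and KO signals from 876.5 to 983.8. WT 5 lay inside the KO range, and the log2 change was -0.42 (limma, adjusted p = 0.0192). S100b, a glial protein, was near the bottom of the scale at 27.2 ± 1.54 and 21.8 ± 2.97 (SD, n = 5 each), and 6 of the 10 leave-one-out fits lost its call. Its signal exceeded the 40th percentile on 6 arrays, namely the 5 WT arrays and KO 9. The WT arrays alone thus sufficed for S100b to pass the filter.

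Of 29 receptors and binding partners listed, 24 were tested, 7 were higher, 2 were lower and 15 did not pass, with a median log2 change of -0.05. Of all genes tested, 13% were called higher and 16.2% lower. Without WT 1 and KO 6, 8 of the partners were higher and 4 lower of 25 tested (31.5% of all genes called). Leaving out KO 6 alone gave 4 lower partners (29% of all genes called). Leaving out WT 1 or WT 2 alone gave 3 lower (29.8% and 26.4% of all genes called). Array weights gave 8 higher and 6 lower of 24 (39.5% of all genes called). Anxa1, the partner of S100A11, rose from 4821 ± 359 to 13956 ± 865 (SD, n = 5 each), 2.89-fold (limma, adjusted p = 1.6e-08). Anxa2, the partner of S100A10, rose from 3347 ± 400 to 6957 ± 137 (SD, n = 5 each), 2.09-fold (limma, adjusted p = 1.1e-06). Ahnak, a scaffold that joins the complex of annexin A2 and S100A10, rose from 795.3 ± 108 to 1250 ± 164 (SD, n = 5 each). For these 3 genes all KO arrays lay above all WT arrays, which was so for 10.1% of the genes tested. The other tested annexins of this list did not pass, with log2 changes of -0.08 for Anxa5 (limma, adjusted p = 0.352) and 0.12 for Anxa6 (limma, adjusted p = 0.599). Annexins outside the list are not given here.

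Of the receptors of calprotectin and other S100 proteins, Tlr4 rose from 50.5 ± 5.44 to 110.7 ± 27.7 and the scavenger receptor Cd36 from 166.5 ± 79.9 to 450.4 ± 178 (SD, n = 5 each), while Ager, which encodes RAGE, had a log2 change of -0.14 (limma, adjusted p = 0.277). Tlr4 and Cd36 are also genes of myeloid and endothelial cells. Of 10 macrophage and dendritic cell markers tested 4 were lower, among them Adgre1 (log2 change -0.67), and 2 were higher, among them Mpeg1 (2.62). Their summed signal was 5858 to 6435 in WT and 4375 to 5466 in KO cells. Most of it came from Lyz2, at 4110 to 4575 in WT and 2622 to 3420 in KO cells. Among 5 endothelial markers 4 were higher, with a median log2 change of 0.62, where 13% of all genes were called higher. Of these markers, Pecam1 and Emcn were near the level of the filter in WT cells. The part of these cells in the 2 receptors was not tested. Cybb, the phagocyte NADPH oxidase subunit that takes arachidonic acid from calprotectin, fell from 727.3 ± 78.2 to 306.8 ± 54.1 (SD, n = 5 each), and its partner Cyba had a log2 change of -0.32, also past the threshold. Myh9, the myosin bound by S100A4, and Cacybp, the binding protein of S100A6, both had a log2 change of -0.14 and missed the threshold (limma, adjusted p = 0.168 and 0.317).

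The genes that share an antimicrobial or alarmin role with calprotectin were divided. Of 13 tested, 6 were lower, 4 higher and 3 not past the threshold, with a median log2 change of -0.20. Of all genes tested, 16.2% were called lower and 13% higher. Il18, a cytokine gene, rose from 134.6 ± 20.7 to 630.7 ± 89.2, and Ltf from 885.9 ± 304 to 2442 ± 896 (SD, n = 5 each). Il33 had a change of 0.73. The serum amyloid genes Saa1, Saa2 and Saa3 were lower, with log2 changes of -1.27, -0.99 and -1.84. The cathelicidin gene Camp was lower by a log2 change of -0.78, a call that was lost without WT 2.

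In RefSeq order the members with a value ran S100a1, S100a13, S100a14, S100a16, S100a3, S100a4, S100a6, S100a8 and S100a9, with log2 changes of -0.16, -0.31, 0.03, 0.17, 0.06, 0.51, 0.38, 0.57 and 0.36. S100a11, which has no value, lies next to S100a10. Of 70 protein-coding genes from S100a1 to S100a10, 43 were tested, 15 were higher, 1 was lower, S100a13, and 27 did not pass, with a median log2 change of 0.24 and 37.2% called, against 29.2% of all genes. The S100-fused proteins, which carry an S100 domain on a long repeat and serve the cornified layer, lie at the far end of the stretch. Of the 4 tested, Rptn rose from 2035 ± 282 to 4433 ± 417, Tchh from 209.8 ± 25.4 to 372.1 ± 33.0 and Hrnr from 222.1 ± 26.2 to 373.8 ± 53.3 (SD, n = 5 each). Flg, which encodes filaggrin, had a change of 0.51 (limma, adjusted p = 0.0226) and lost its call without WT 4, WT 5, KO 8 or KO 9.

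Of 14 other genes of the complex listed and tested, outside the S100, S100-fused and Sprr families, 3 were higher, where 29.2% of all genes were called. They were Crct1 (2307 ± 526 against 685.9 ± 58.7, SD, n = 5 each), Lor, which encodes loricrin (log2 change 0.62), and Kprp (0.35), for which 6 of 10 leave-one-out fits lost the call. The median log2 change of the 14 listed genes was 0.23. Further tested genes of the complex, not on this list, did not pass. They were Prr9 (log2 change 0.44), Lce1a2 (-0.31), Lce1d (-0.33), Lce1h (-0.08) and Lce1i (-0.20). The listed Lce1b (-0.36) and Lce1c (-0.48) did not pass either. Without KO 10 the count of higher genes on the list was 6 (27.6% of all genes called). Without WT 1 it was 3 with 2 lower genes (29.8%), and without WT 1 and KO 6 it was 4 with 2 lower (31.5%). Array weights gave 5 higher and 2 lower (39.5%).

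**Figure D4:**
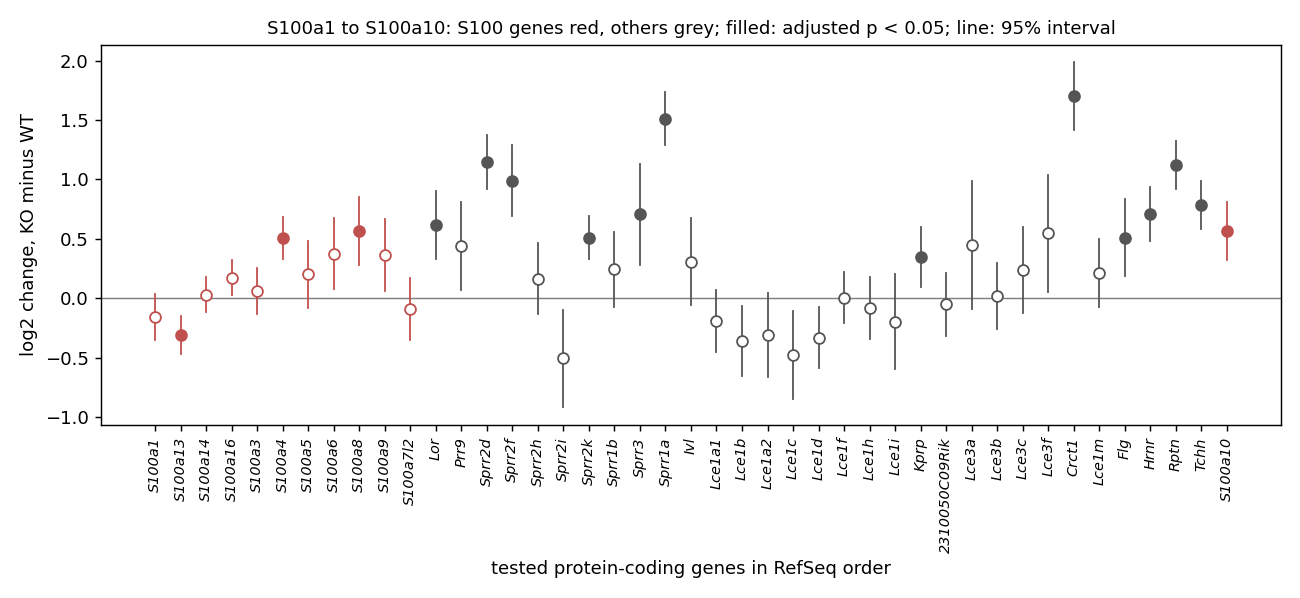
Log2 change, KO minus WT, with 95% intervals (vertical axis) of the 43 tested protein-coding genes from S100a1 to S100a10 in RefSeq order (horizontal axis, evenly spaced, not to genomic scale). S100 genes are red, others grey, and filled points have an adjusted p under 0.05, among them S100a13 as the single lower gene and 15 higher genes.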

How the data were processed

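The authors deposited 1 linear signal intensity per probe set and array for 45101 probe sets. The submitters' processing notes name MAS5 and give no version. Scaling target, filters, genome build and detection calls are not stated in what was used here. Array medians lay between 36.5 and 38.0. The platform annotation gave 1 gene symbol for 34958 probe sets, of which 34754 were matched by Entrez identifier to RefSeq (GRCm38.p6), used for names and gene order. Probe sets above the 40th percentile of their array on at least 5 of 10 arrays were kept, and each gene took the kept one with the highest mean.

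Log2(signal + 16) was fitted across all genes with limma 3.58.1 in R 4.3.3 (eBayes with trend and robust estimation), KO minus WT, with Benjamini-Hochberg adjustment over 14087 genes and a threshold of 0.05. The procedure was tested on simulated data of 14087 genes, of which 100 were changed. It recovered 72% of these at a log2 change of 0.5 and 100% at a log2 change of 1, with 13 false calls each. With no gene changed it made 0 calls. Exact permutation tests used all 252 splits of the arrays; correlations used the 14400 permutations within genotypes. The members and gene lists were chosen with earlier results of these data known. Named were all members, list genes past the threshold with a log2 change of at least 0.58 in size, and the gene most correlated with each member. Other genes named were chosen after their values were seen. Within-array ratios and the alternatives for list counts were chosen after seeing the data. Promoter stretches came from the RefSeq table. Processing alternatives covered the offset (1 or 64), the scaling (quantile or by median), the filter (absent, or at the 60th percentile), probe sets (their mean, or only those without shared sequence), eBayes with no trend, weights per array, a threshold of 0.01, WT 1 and KO 6 left out or as a block, Xist signal as a block, and each array left out. The number of arrays limits the precision.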

Additional observations from a re-analysis of the deposited data

Results flagged for a closer look

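The S100a14 signal on KO 6, 4301, lay far below the other 4 KO arrays, which were between 5289 and 5590. The gap to the nearest array was 0.77 of the group's whole range, above the critical value of 0.71 in Dixon's test for 5 samples. It was the only one of 18 groups of S100A values past that value, where chance gives about 1 in 20. S100a6 on KO 6, at 4809 against 2701 to 3330 on the other KO arrays, came close with 0.70.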

How the results depend on the processing

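S100a4, S100a8 and S100a13 kept their direction and call under each alternative that could be run for them (24, 23 and 24), and no member changed direction under any alternative. The number of members called was 3 with all arrays, 6 with array weights (where 39.5% of all genes were called), 7 without WT 1 and KO 6 (31.5%), 6 when these arrays formed a block (36.2%), 4 with Xist signal as a block (27.5%), and between 3 and 5 when 1 array was left out. The cause was not tested. S100a9 and S100a6 also passed with array weights (adjusted p = 0.00368 and 0.00562) and in the block fit of those arrays (adjusted p = 0.0376 and 0.00158). S100a16 passed under 8 of 23 alternatives, with adjusted p from 0.0134 to 0.184 over all of them. Without probe sets of shared sequence S100a6, S100a8 and S100a16 had no value. Over all genes 4119 were called. The count was 2473 at a threshold of 0.01, 5563 with array weights, 5098 with the block, 4440 without WT 1 and KO 6, and between 3454 and 4220 when 1 array was left out; median shifts of all genes stayed between -0.04 and -0.01. No paired analysis was possible because the groups share no replicate numbers.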

Other observations

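Of all genes outside the S100 families, those whose variation over the 10 arrays was most like that of a member, after the mean of each genotype was removed, were found for each member. For S100a8 it was E330034G19Rik (Pearson's r 0.97, Spearman's rho 0.99, r of 0.94 without WT 1 and WT 4), for S100a4 Rps6kl1 (r 0.97, rho 0.94, r of 0.95 without KO 10 and WT 3) and for S100a13 Mfap3l (r 0.96, rho 0.90, r of 0.94 without KO 6 and WT 1). No p is given, since each was picked as the highest of all genes tested. While S100a8 and S100a4 were higher in KO cells, E330034G19Rik and Rps6kl1 were lower, with log2 changes of -0.53 and -0.49 (limma, adjusted p = 0.0089 and 0.0325), and Mfap3l was lower with -0.52. For S100a6 the gene was Fzd5, for S100a9 AA467197, for S100a1 Nrip3, for S100a3 Ncapd2, for S100a14 Tnip2 and for S100a16 Dmpk, with r between 0.96 and 0.99. The r of S100a6 with Fzd5 was 0.98 and was 0.87 without KO 6 and WT 1.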
